A study of Mus musculus with 40 samples.

Results

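Livers of mouse fetuses were profiled by RNA sequencing, and the 41 genes described here encode the machinery of fatty acid oxidation and ketone body metabolism together with known target genes of the nuclear receptor PPARalpha. They were chosen by gene symbol from the 20593 genes in the table of the whole series, not by their values. Every one of the 41 was present and passed the filter on low values that left 15377 genes for testing.

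All fetuses were C57BL/6 and were collected on gestational day 18.5, and all dams had eaten their diet for 13 weeks before breeding. The control diet (CD) supplied 10% of energy as fat and 2 mg/kg folic acid. CDF was the same diet with 10 mg/kg folic acid. The western diet (WD) supplied 45% of energy as fat with 2 mg/kg folic acid, and WDF was the western diet with 10 mg/kg. Each diet was given for male (M) and female (F) fetuses with 5 libraries a group. A pair of female libraries, replicate 4 of CD and replicate 5 of CDF, carried a lung transcript profile and were set aside, so that CD_F and CDF_F have 4 libraries and the description rests on 38 of 40. The labels name no dam or litter, so p-values measure only the spread between these fetuses, which may share a mother.

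In fatty acid oxidation, long-chain fatty acids are activated to acyl-CoA, carried into mitochondria on carnitine, and shortened in repeated rounds by dehydrogenases, hydratases and thiolases, while peroxisomes shorten very long chains. PPARalpha, a receptor activated by fatty acids, switches on many of these genes in liver during fasting and around birth, when milk fat replaces maternal glucose. The acetyl-CoA formed can be turned into ketone bodies, which other organs burn.

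In the 38 libraries the normalized counts summed to between 15002000 and 27817000, with a median of 17006000. Counts of reads before normalization were not used here, so no counting interval is given. Albumin, the main hepatocyte product, lay between 641907 and 1496611 normalized counts in the 38 libraries, and at 7708 and 5278 in the libraries set aside. Sftpc, a surfactant gene of lung epithelium, was still above 1000 in 6 of the 38 libraries, with 30176 in replicate 5 of CD_F and 24797 in replicate 4 of CDF_F. In bulk tissue, fewer cells of a type and less RNA per cell cannot be told apart.

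Levels were compared between members per 1000 bases of the longest protein-coding transcript. Acaa2, the mitochondrial thiolase that splits off acetyl-CoA, had a median level of 6678 normalized counts per 1000 bases over the 38 libraries. Etfb, a subunit of the flavoprotein that takes electrons from the acyl-CoA dehydrogenases, followed at 4835, and Acsl1, which activates long-chain fatty acids, at 2849. Of the dehydrogenases, which each prefer a chain length, Acadm for medium chains stood at 2675, Acadl for long chains at 1891, Acadvl for very long chains at 1509 and Acads for short chains at 661.

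The carnitine shuttle was expressed at lower levels per length. Slc25a20, the inner membrane carrier of acylcarnitines, had a median of 362, Cpt2, which restores acyl-CoA inside the mitochondrion, 276, and Cpt1a, the outer membrane enzyme that controls entry, 193. Slc22a5, the plasma membrane carnitine transporter, stood at 28.8. The peroxisomal enzymes Acaa1a, Hsd17b4, Acaa1b and Ehhadh lay between 364 and 632 per 1000 bases. Among the regulators Creb3l3, a liver transcription factor, reached 670, Ppara 137 and its coactivator Ppargc1a 23.1. Angptl4, a secreted inhibitor of lipoprotein lipase, stood at 207, and Fgf21, a secreted hormone of fasting, was the lowest member at 11.3.

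The members differed in how much they varied over the 38 libraries. The highest library exceeded the lowest by 1.56 times for Acadl, 1.58 times for Bdh1, which interconverts the ketone bodies, and 1.59 times for Hadhb, a subunit of the trifunctional protein of the mitochondrial cycle. Cyp4a14 and Cyp4a10, the omega-hydroxylases that open a side route of fatty acid breakdown, spanned 31.4 times and 22.0 times, and Vnn1, a pantetheinase, 9.81 times. Every pair of neighbours in the order of levels overlapped in range. The ranges per 1000 bases of Acsl1 (1304 to 4018) and Acadm (1802 to 3690) could not be separated, and Ppargc1a (12.9 to 41.9) overlapped Slc22a5 (16.7 to 41.9).

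**Figure D1:**
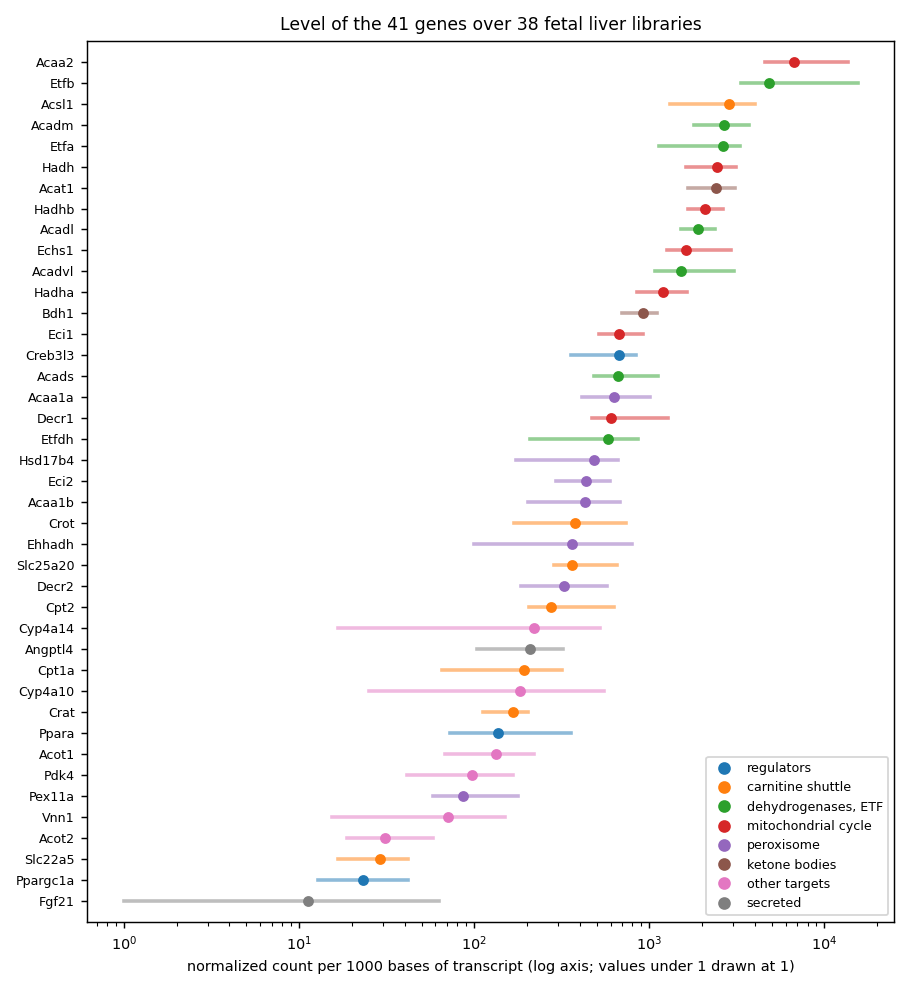
Normalized count per 1000 bases of the longest protein-coding transcript for the 41 genes, on a log axis, with a dot at the median and a bar from the lowest to the highest of 38 libraries, coloured by role. The mitochondrial thiolase Acaa2 has the highest median, at 6678, and Fgf21 the lowest, at 11.3, and the bars of Cyp4a10 and Cyp4a14 are the widest apart from that of Fgf21.

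The first comparison asked whether folic acid added to a maternal western diet went with other levels of these genes in male fetuses. In WDF_M 36 of 41 members had a higher mean log2 value than in WD_M and 5 had a lower one, with a median log2 difference of 0.22 over the members and 0.0079 over all tested genes. Here and below, counts of higher and lower members refer to means of log2 values. Means of normalized counts can have the other order, as for Ehhadh (1056 in WD_M and 947 in WDF_M) and Etfdh (1336 and 1327), which were lower in WDF_M by that measure. No member passed the test: 0 of 41 had an adjusted p under 0.05 by limma, as had 0% of all genes, and the smallest adjusted p among members was 0.336. At an unadjusted p under 0.05, 11 members were higher and 0 lower, where 4.77% of all genes were higher and 4.04% lower. With limma's library weights, an alternative that counts variable libraries less, 9 members and 4.04% of all tested genes (621) had an adjusted p under 0.05, all 9 members higher and the smallest at 0.0122. By role, the regulators were higher in 3 of 3, with a median log2 difference of 0.26, the peroxisomal genes had a median of 0.26 and the carnitine shuttle of 0.11. The acyl-CoA dehydrogenases and electron carriers had a median of 0.05, the other mitochondrial cycle enzymes 0.10, and Bdh1 and Acat1, the ketone body enzymes, 0.15.

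Angptl4 (chromosome 17, 33773750 to 33781830, minus strand, GRCm38) was measured in the 5 WD_M livers at 405, 345, 485, 704 and 653 normalized counts. In the 5 WDF_M livers it was measured at 769, 762, 721, 929 and 1069. The lowest WDF_M liver was above the highest WD_M liver. The log2 difference was 0.75 with a standard error of 0.19 (unadjusted p = 0.000335, adjusted p = 0.336, limma). The WD_M mean of 518 ± 156 (SD, n = 5) was also the lowest of the 8 groups, since CD_M had 601 ± 131 and CDF_M 677 ± 118 (SD, n = 5 each).

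Slc25a20 (chromosome 9, 108662088 to 108684641, plus strand) was measured at 607, 545, 507, 596 and 529 in WD_M and at 743, 789, 735, 775 and 652 in WDF_M. These ranges did not overlap either, and the log2 difference was 0.41 with a standard error of 0.14 (unadjusted p = 0.00539, adjusted p = 0.455, limma). Acadvl (chromosome 11, 70010183 to 70015411, minus strand) had 2904, 3498, 3106, 2909 and 2582 in WD_M. Its WDF_M values were 3808, 5341, 5211, 4432 and 4120, all above those of WD_M. The log2 difference of Acadvl was 0.61 with a standard error of 0.23 (adjusted p = 0.487, limma).

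Members whose groups did not overlap, with WDF_M higher, numbered 5 of 41, and 1.34% of all genes were so placed. Besides the 3 already named they were Hadhb and Acat1, the mitochondrial thiolase that joins or splits acetoacetyl-CoA. Hadhb was measured at 4512, 4266, 3899, 3966 and 3407 in WD_M and at 5037, 5248, 4547, 4977 and 4984 in WDF_M. Its log2 difference was 0.31 with a standard error of 0.11 (adjusted p = 0.456, limma). Hadha, which encodes the other subunit of the same protein, had a log2 difference of −0.05. Its values of 4150, 4425, 4724, 5725 and 5128 in WD_M and 5723, 4627, 4128, 4826 and 4012 in WDF_M overlapped widely.

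The peroxisomal thiolase Acaa1b (chromosome 9, 119148023 to 119157093, minus strand) was measured at 515, 398, 398, 978 and 343 in WD_M and at 914, 1143, 936, 786 and 868 in WDF_M. The WD_M liver at 978 was the only one within the range of WDF_M. The log2 difference was 0.92 with a standard error of 0.26 (unadjusted p = 0.0011, adjusted p = 0.445, limma). Its paralog Acaa1a, 183 kb away on the same chromosome, had a log2 difference of 0.35, and reads may be split between the copies. Decr2, the peroxisomal dienoyl-CoA reductase needed for unsaturated chains, had 487, 499, 493, 944 and 633 in WD_M and 1106, 776, 847, 916 and 902 in WDF_M, a log2 difference of 0.61. Here too replicate 4 of WD_M was the high one of its group.

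Cyp4a10 (chromosome 4, 115518264 to 115533649, plus strand) had 191, 52.6, 121, 765 and 372 normalized counts in WD_M and 984, 572, 542, 774 and 782 in WDF_M. Its log2 difference of 1.80, with a standard error of 0.64, was the largest among the 41 members in this comparison (unadjusted p = 0.00765, adjusted p = 0.465, limma). Cyp4a14, its paralog 22.1 kb away, had 207, 72.9, 132, 1217 and 537 in WD_M and 1087, 1127, 670, 730 and 905 in WDF_M, a log2 difference of 1.73. Replicate 4 of WD_M held the highest Cyp4a14 value of both groups, and replicates 1 to 3 of WD_M the lowest 3. Eci1, the mitochondrial isomerase for unsaturated chains, and Ppargc1a were the other members at an unadjusted p under 0.05, with log2 differences of 0.33 and 0.46. The members with lower mean log2 values were Crot, the peroxisomal carnitine octanoyltransferase, at −0.43, Acot2 at −0.07, Acadl at −0.06, Hadha at −0.05 and Eci2 at −0.02.

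The regulators showed wide spreads. Ppara was measured at 585, 439, 247, 483 and 385 in WD_M and at 539, 471, 415, 562 and 493 in WDF_M, a log2 difference of 0.26, and the WDF_M values lay within the range of WD_M. Ppargc1a had 87.9, 103, 173, 143 and 149 in WD_M and 156, 147, 190, 219 and 177 in WDF_M. Creb3l3 had 1249, 931, 1162, 1880 and 1515 in WD_M and 1525, 1564, 1382, 1710 and 1440 in WDF_M, a log2 difference of 0.22. For Creb3l3 too WD_M ranged beyond WDF_M at both ends.

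Of the members not yet given for this comparison, Fgf21 had a log2 difference of 1.09 on values of 1.09 to 21.7 in WD_M and 1.06 to 60.01 in WDF_M. Cpt2 (0.41), Acaa2 (0.39), Etfb (0.39), Acot1 (0.30), Cpt1a (0.28), Pex11a (0.26), Acat1 (0.25) and Vnn1 (0.20) were higher without an unadjusted p under 0.05. The other members, Acads, Hsd17b4, Acsl1, Pdk4, Decr1, Hadh, Ehhadh, Acadm, Bdh1, Echs1, Etfa, Etfdh, Slc22a5 and Crat, lay between 0.03 and 0.14. Pdk4 encodes a kinase that shuts off pyruvate oxidation, and Decr1 and Hadh are enzymes of the mitochondrial cycle.

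Other measures also differed between WD_M and WDF_M. The summed level of 14 hepatocyte markers was 2739300 to 3087300 in WD_M and 3020200 to 3671000 in WDF_M, with 10 of 14 markers higher. Of 12 markers of red cell precursors, which are abundant in fetal liver, 2 were higher, with summed levels of 332220 to 1180900 in WD_M and 515280 to 1008900 in WDF_M. All 8 megakaryocyte markers were higher in WDF_M, and their sums did not overlap (3765 to 4851 against 5150 to 7078). All 9 lung epithelium markers were higher in WDF_M, with sums of 186 to 8816 there (median 244), against 123 to 220 in WD_M (median 148). No marker of these lists was at 0 in all libraries of either group. The part of these differences in the values of the oxidation genes was not tested beyond a fit with red cell markers as a covariate. That fit left 28 of 41 members higher (50.7% of all genes), with a median log2 difference of 0.12. In it 13 members had an unadjusted p under 0.05 (14% of all genes, limma), 12 of them higher (7.23%). Without that covariate, leaving out replicate 2 of WD_M gave a median of 0.13. With the 2 lung-like libraries kept in the fit, 36 of 41 members were again higher. There 0 members had an unadjusted p under 0.05, where 4.58% of all genes did (limma). Those libraries belong to CD_F and CDF_F. They leave the WD_M and WDF_M values as they are and enter through the spread per gene, which is taken over all 8 groups.

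**Figure D2:**
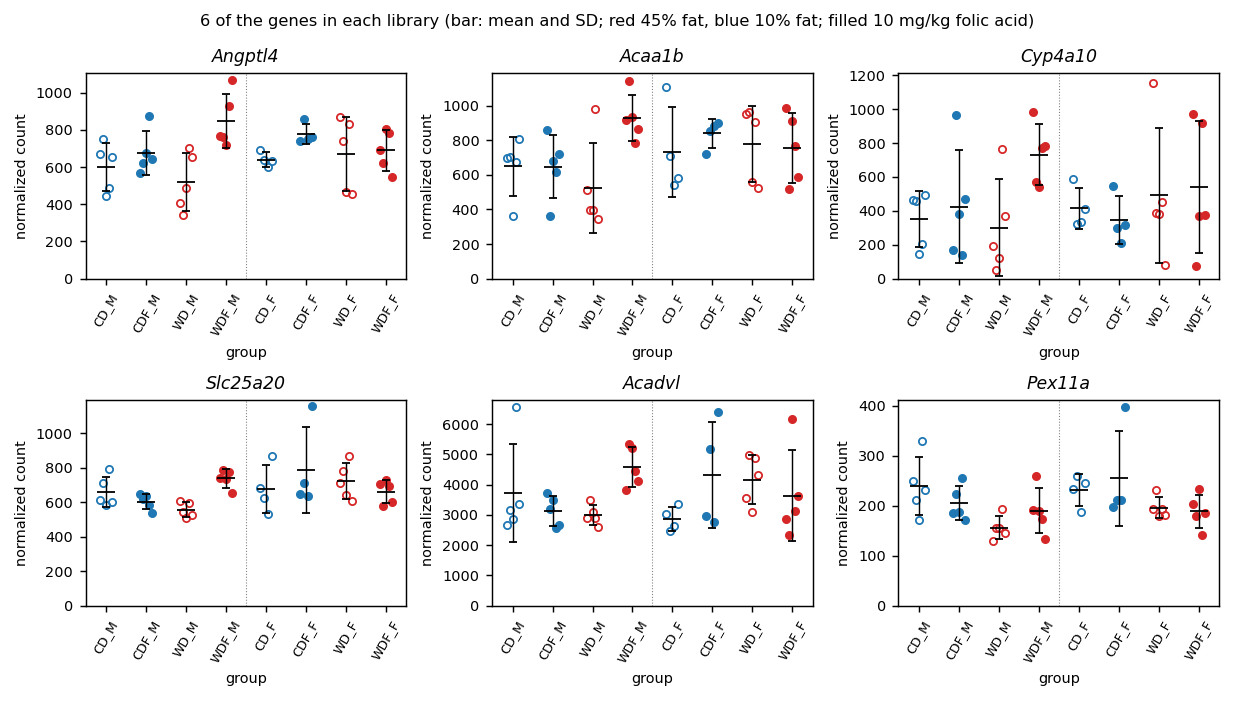
Normalized counts of Angptl4, Acaa1b, Cyp4a10, Slc25a20, Acadvl and Pex11a in each of 38 livers, by group, with the group mean and SD as bars; red marks 45% fat, blue 10% fat, and filled points 10 mg/kg folic acid. The 5 WDF_M livers lie above all WD_M livers for Angptl4, Slc25a20 and Acadvl, and the 5 WD_M livers include low values of Cyp4a10 down to 52.6.

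In females the same change of diet left the members without a common direction. Comparing WDF_F with WD_F, 21 of 41 were higher and 20 lower, with a median log2 difference of 0.01. None had an unadjusted p under 0.05, against 1.44% of all genes, and the adjusted count was 0 (0% of all genes, limma). Angptl4 stood at 690 ± 109 in WDF_F and 673 ± 199 in WD_F (SD, n = 5 each), and Slc25a20 at 661 ± 67.5 and 723 ± 105. Cyp4a10 ranged from 83.1 to 1155 in WD_F and from 74.6 to 974 in WDF_F, so that its groups covered each other.

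The difference between the sexes in the folic acid effect on the western diet was tested as an interaction. The female effect was smaller than the male one for 29 of 41 members and larger for 12, and the median log2 interaction was −0.24, against −0.003 over all genes. No member passed at an adjusted p under 0.05 (0% of all genes), and the smallest adjusted p was 0.580 (limma). At an unadjusted p under 0.05, 7 members were lower, where 3.77% of all genes were: Acaa1b (−0.96), Acadvl (−0.87), Angptl4 (−0.67), Acaa1a (−0.57), Slc25a20 (−0.53), Eci1 (−0.42) and Hadhb (−0.40). With library weights 7 members, all lower, and 3.77% of all genes had an adjusted p under 0.05.

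The same contrast was taken on the control diet. Between CDF_M and CD_M 25 members were higher and 16 lower, with a median log2 difference of 0.10. The adjusted count was 0 of 41 (0% of all genes, limma). Fgf21 was the 1 member lower at an unadjusted p under 0.05, as were 1.98% of all genes. It was measured at 6.56, 18.8, 29.0, 58.4 and 33.2 in CD_M and at 4.78, 5.39, 12.8, 5.98 and 0 in CDF_M. Its values were low in every liver, and the ranges overlapped.

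Between CDF_F and CD_F 24 members were higher and 17 lower, with a median log2 difference of 0.09 and an adjusted count of 0 (0% of all genes, limma). Etfb alone was higher at an unadjusted p under 0.05, as were 3.83% of all genes, with a log2 difference of 0.66. The groups of 2 members did not overlap, with CDF_F higher, against 1.42% of all genes. These were Angptl4, at 693, 637, 601 and 631 in CD_F and 743, 857, 752 and 760 in CDF_F, and Cpt2, at 577, 547, 597 and 521 in CD_F and 632, 1022, 610 and 857 in CDF_F. The lung markers of these groups reached sums of 40845 in CD_F (median 295) and 29778 in CDF_F (median 1245), and their part in these values was not tested.

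Over the 4 strata of sex and fat, folic acid went with higher mean log2 values of 34 members and lower ones of 7, with a median log2 difference of 0.08 against −0.0009 for all genes. The adjusted count was 0 (0% of all genes) and the smallest adjusted p 0.99986 (limma). Angptl4 and Acaa1b were higher at an unadjusted p under 0.05, as were 1.05% of all genes. Angptl4 had a log2 difference of 0.32 with a standard error of 0.10 (unadjusted p = 0.00209), made up of 0.75 in western diet males, 0.28 in control diet females, 0.18 in control diet males and 0.08 in western diet females. Acaa1b had 0.28, of which the western diet males gave 0.92 and the control diet males −0.01.

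Whether the folic acid effect depended on dietary fat was also tested. In males 27 members had a larger effect on the western diet and 14 a smaller one, with a median log2 interaction of 0.16. The adjusted count was 0 (0% of all genes, limma). At an unadjusted p under 0.05, 7 members were higher, where 6.1% of all genes were, and Crot was lower (−0.92), where 6.21% were. The 7 were Acaa1b, Acadvl, Acaa2, Slc25a20, Eci1, Angptl4 and Fgf21. With library weights Slc25a20 and Eci1 passed, as did 2.58% of all genes. In females 19 were higher and 22 lower, with an adjusted count of 0 (0% of all genes, limma). Etfb (−1.01), Acadvl (−0.77) and Acaa1a (−0.54) were lower at an unadjusted p under 0.05, as were 7.86% of all genes. The male and the female interactions had opposite signs for Acadvl, at 0.79 and −0.77. That contrast of interactions was not tested.

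The western diet was compared with the control diet in 4 strata. Between WD_M and CD_M 13 members were higher and 28 lower, with a median log2 difference of −0.09 and an adjusted count of 0 (0% of all genes, limma). With red cell markers as a covariate, 22 members were higher, as were 49.2% of all genes. The mostly lower direction therefore did not hold in that fit. Without this covariate, Crot was the 1 member higher at an unadjusted p under 0.05 (3.35% of all genes), with a log2 difference of 0.54. Pex11a and Fgf21 were the 2 that were lower (3.3% of all genes). Pex11a, a membrane protein that makes peroxisomes divide, was measured at 249, 211, 172, 329 and 232 in CD_M. In WD_M it was measured at 130, 155, 155, 193 and 146. Only the highest WD_M liver fell within the CD_M range, and the log2 difference was −0.59 (unadjusted p = 0.00261, limma).

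Over the 4 strata, the fat effect on Pex11a (chromosome 7, 79735957 to 79743131, minus strand) was −0.34 on the log2 scale with a standard error of 0.09 (unadjusted p = 0.00103, adjusted p = 0.244, limma). It was lower on the western diet in each stratum: −0.59 and −0.13 in males without and with added folic acid, and −0.24 and −0.39 in females. In all 4 strata the ranges overlapped. No member was among the 0.0455% of genes with an adjusted p under 0.05, while 3 passed with library weights, as did 3.16% of all genes. At an unadjusted p under 0.05, 4 members were lower, against 4.25% of all genes, and 1 higher, against 3.25%. Beside Pex11a the lower ones were Fgf21 (−1.03), Ehhadh (−0.43), the bifunctional peroxisomal hydratase and dehydrogenase, and Acot1 (−0.27), a cytosolic acyl-CoA thioesterase. Ehhadh was measured at 1954, 1686, 1004, 298 and 1226 in CD_M and at 745, 533, 630, 2380 and 991 in WD_M, so that replicate 4 of WD_M lay above every CD_M liver and the other 4 below the CD_M median. Acot1 had a negative log2 difference in each stratum (−0.42, −0.18, −0.21 and −0.29). Its neighbour Acot2, a mitochondrial copy 15.6 kb away, had −0.25, and reads may be split between them.

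Bdh1 was the 1 member higher over the strata, by 0.13 with a standard error of 0.05 (unadjusted p = 0.0187, adjusted p = 0.534, limma). It was also 1 of 3 members higher at an unadjusted p under 0.05 between WD_F and CD_F, where 3.06% of all genes were higher. Bdh1 was measured at 2974, 2969, 2382 and 2317 in CD_F and at 3322, 3433, 3066, 3418 and 2816 in WD_F. Cpt2 (0.60) and Acadvl (0.52) were the others. Acaa2 alone had groups that did not overlap there, with WD_F higher, as had 1.24% of all genes. Over that comparison 20 members were higher and 21 lower, and the adjusted count was 0 (0% of all genes, limma). With red cell markers as a covariate, 36 members were higher between WD_F and CD_F, where 50.1% of all genes were.

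With added folic acid in both diets, WDF_M against CDF_M had 24 members higher and 17 lower, with a median log2 difference of 0.10. The adjusted count was 0 (0% of all genes, limma). Eci1 (0.36), Acadvl (0.55), Acaa1b (0.57) and Slc25a20 (0.29) were higher at an unadjusted p under 0.05, against 3.43% of all genes. Slc25a20, Acadvl and Acaa2 had groups that did not overlap, against 1.03% of all genes. With library weights Acadvl and Eci1 passed, as did 1.57% of all genes. In females, WDF_F against CDF_F had 19 higher and 22 lower. There 0 members had an unadjusted p under 0.05, where 8.14% of all genes did, and the adjusted count was 0 (0% of all genes, limma). The fat comparisons and the folic acid comparisons share groups, so their values are given side by side and are not independent of each other.

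Beside the fat effect, all 12 markers of red cell precursors were higher on the western diet, with a median log2 difference of 0.21. All 7 mesothelial markers and all 9 lung epithelium markers were lower over the strata. In males without added folic acid, summed mesothelial levels reached 2681 in CD_M and 1088 in WD_M, and lung sums 5956 and 220. The medians lay closer, at 1165 and 1043 for mesothelial sums and 224 and 148 for lung sums. In males with added folic acid all 9 lung markers were instead higher on the western diet, with sums up to 249 in CDF_M and 8816 in WDF_M, and mesothelial sums reached 1067 and 1596. Their medians were 170 and 244 for lung sums and 764 and 803 for mesothelial sums. There 5 of 12 red cell markers were higher. With red cell markers as a covariate, 30 of 41 members were higher for the fat effect (50.5% of all genes), against 25 without it. In that fit 7 members had an unadjusted p under 0.05 (5.31% of all genes, limma), 5 of them higher (2.33%). Beyond that fit, the part of these markers in the lower Pex11a was not tested.

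Between the sexes, 33 members were higher in females and 8 in males over the 4 diets, with a median log2 difference of 0.08. Of all genes 51.8% were higher in females, with a median of 0.005. No member was among the 0.0585% of genes with an adjusted p under 0.05 (limma), and none had an unadjusted p under 0.05, against 3.1% of all genes. Slc25a20 came nearest, at 0.14 higher in females (unadjusted p = 0.0524). Ppara was 0.22 higher, with 1 female liver, replicate 4 of CDF, at 1225 and all males between 247 and 585. Cpt1a was lower in females by 0.16.

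**Figure D3:**
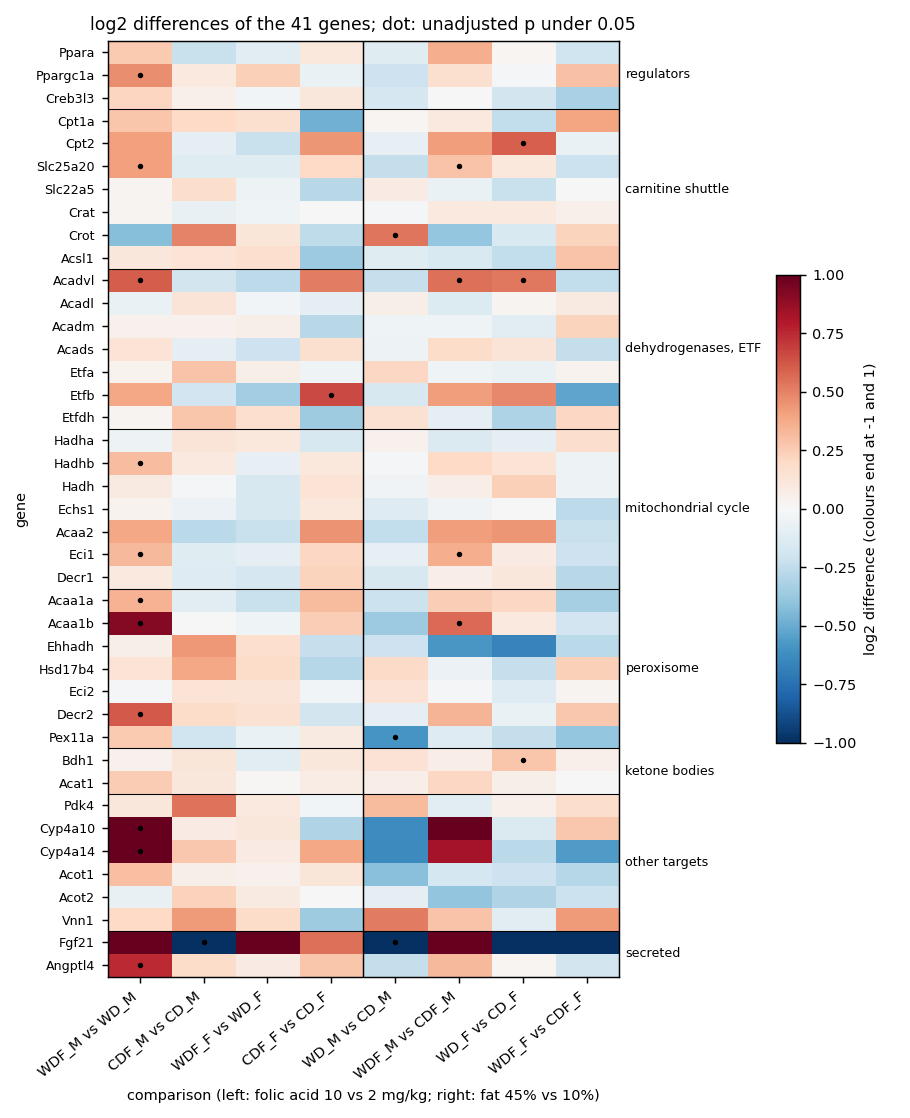
Log2 differences of the 41 genes (rows) in 8 comparisons (columns), 4 for folic acid at left and 4 for dietary fat at right, with colours ending at −1 and 1 and a dot where the unadjusted p was under 0.05. Dots gather in the column of WDF_M against WD_M, with 11, and no column of WDF_F holds one.

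The authors' deposited table for western diet males called 2 of the 41 members, where 1.48% of its genes were called (203 of 13715). In the authors' deposited table Acadvl had a log2 fold change of 0.549 (adjusted p = 0.0031) and Slc25a20 one of 0.356 (adjusted p = 0.0159). Angptl4 (0.565, adjusted p = 0.0522) and Acaa1b (0.608, adjusted p = 0.0818) missed the threshold in the authors' deposited table, and 34 members had positive and 7 negative values. The authors' deposited tables called 0 members for control diet females (0.0216% of genes), control diet males (0.0437%) and western diet females (0%). The limma fit here used 8 groups and log2 values, so values of the 2 sources are not interchangeable.

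Other genes of the pathway were also counted in WDF_M against WD_M. There 4.77% of all genes were higher and 4.04% lower at an unadjusted p under 0.05 (limma). Of 17 further peroxisomal genes 10 were higher and 7 lower, with a median log2 difference of 0.06, and Ech1 (0.62) and Hacl1 (0.60), enzymes for unsaturated and branched chains, had an unadjusted p under 0.05. Of 18 tested mitochondrial genes 10 were higher and 8 lower, with a median of 0.09. Echdc2 (0.48) and Acad12 (0.62) had the smallest p-values of that list, both with an unadjusted p under 0.05. Of 26 tested PPARalpha targets and lipid handling genes 20 were higher and 6 lower. Their median was 0.22, like that of the members, and 4 had an unadjusted p under 0.05. Fabp1, the fatty acid binding protein of liver, was among these (log2 difference 0.53, unadjusted p = 0.00274), as was the thioesterase Acot12 (0.51). Of 24 partners and regulators of PPARalpha 15 were higher and 9 lower, among them the coactivator Ppargc1b (0.68). No gene of these 4 lists had an adjusted p under 0.05 in any of the 14 comparisons (limma). For the fat effect, Acacb, which makes the malonyl-CoA that inhibits Cpt1a, had a log2 difference of −0.81 (unadjusted p = 0.00108), and Lpin1, a phosphatidate phosphatase and coactivator of PPARalpha, one of −0.46 (unadjusted p = 0.00094).

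Across the 38 livers the members did not move as one block. Of 820 pairs of members, 313 were positively and 79 negatively correlated at an adjusted p under 0.05 over the pairs (permutation test with 100000 resamples, two-sided), and the median Pearson r was 0.23. Pairs of other genes were not counted, so whether these counts are particular to the members was not tested. No clustering was run. Given here are 5 chosen pairs that join the omega-hydroxylases to each other or to other PPARalpha targets. Reads may be split between the neighbouring paralogs Cyp4a10 and Cyp4a14. Cyp4a10 and Cyp4a14 had r = 0.88 and rho = 0.82, Cyp4a14 and Creb3l3 0.85 and 0.64, and Cyp4a10 and Decr2 0.83 and 0.85. Cyp4a10 and Vnn1 had 0.72 and 0.74, and Cyp4a14 and Angptl4 0.67 and 0.68. For these 5 pairs the adjusted permutation p was at most 0.000239, r without the 2 farthest libraries was 0.69 to 0.84, and r within groups was 0.60 to 0.89. Pairs share the library, its depth and its cell makeup. Ppara itself was closer to Slc25a20 (r = 0.71, Spearman rho = 0.53, adjusted permutation p = 8.4e-05 and 0.00328) than to Angptl4 (r = 0.25, rho = 0.29, adjusted p = 0.211 and 0.154). That difference between coefficients was not tested, and the first was 0.49 without the 2 libraries farthest in Ppara.

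Levels were also compared with a property of the libraries. In each library the deviation of every gene from its mean over the 38 was correlated with the GC content of its transcript, over 15323 genes that are not members, and this Spearman coefficient served as a GC measure of the library. It averaged 0.116 ± 0.261 in WDF_M and −0.083 ± 0.157 in WD_M (SD, n = 5 each), and ran opposite to the same measure for transcript length (r = −0.85). Of the 41 members, 11 correlated positively with it and 17 negatively at an adjusted p under 0.05 over the 41, while 13 passed no threshold (permutation test with 100000 resamples, two-sided). These 28 had an r of at least 0.37 in size. Of all tested genes 29.0% were as strongly positive and 30.3% as strongly negative, so the members' counts are near the background and do not set them apart. Positive ones had a median transcript GC content of 52.8% and a median length of 1789 bases, and negative ones 48.0% and 2684 bases.

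Acadvl had the highest Pearson correlation with the GC measure among the members, at r = 0.83, with rho = 0.78 (permutation p = 1e-05 each, the smallest that 100000 resamples can give, adjusted p = 3.7e-05 and 3.4e-05). It kept r = 0.80 without the 2 farthest libraries and 0.82 within groups. By rho, Etfb (0.87) and Acaa1a (0.83) were above it. Acaa1a (r = 0.80), Cpt2 (0.80), Etfb (0.78) and Acaa2 (0.77) went the same way. Etfdh, which passes the electrons on to ubiquinone, had r = −0.79, and Crot −0.79, Acsl1 −0.75, Hsd17b4 −0.70 and Cpt1a −0.61. Angptl4 (r = −0.004), Cyp4a14 (−0.03), Acaa1b (0.23) and Pex11a (0.21) passed no threshold. With the GC measure as a covariate, 38 of 41 members were higher in WDF_M than in WD_M and 14 had an unadjusted p under 0.05, where 50.8% of all genes were higher and 7.44% had such a p.

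Partner subunits had opposite coefficients with the GC measure. Etfa and Etfb, the 2 subunits of 1 electron transfer flavoprotein, were negatively correlated over the 38 livers (r = −0.49, rho = −0.50, permutation p = 0.0107 for r, adjusted p = 0.0261 over 820 pairs). The coefficient was −0.31 without the 2 farthest libraries and −0.57 within groups. In replicate 4 of CD_M Etfb stood at 9396 and Etfa at 1574, the highest and the lowest of that group. Transcript GC content was 57.1% for Etfb and 45.0% for Etfa. Hadha and Hadhb had r = −0.06 (permutation p = 0.728), and their coefficients with the GC measure were −0.69 and 0.58. Here transcript GC content was higher for Hadha (51.3%) than for Hadhb (45.4%), the reverse of the order of their coefficients.

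**Figure D4:**
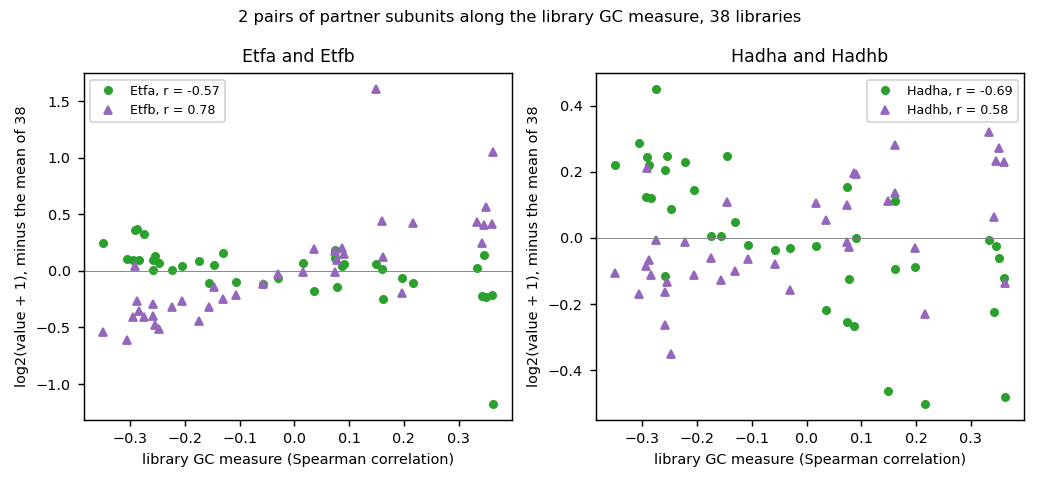
Centred log2 levels of Etfa and Etfb, and of Hadha and Hadhb, in 38 livers against the GC measure of each library (Spearman coefficient of gene deviation with transcript GC content). Etfb and Hadhb rise along the axis, with r = 0.78 and 0.58, and Etfa and Hadha fall, with r = −0.57 and −0.69.

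**Figure D5:**
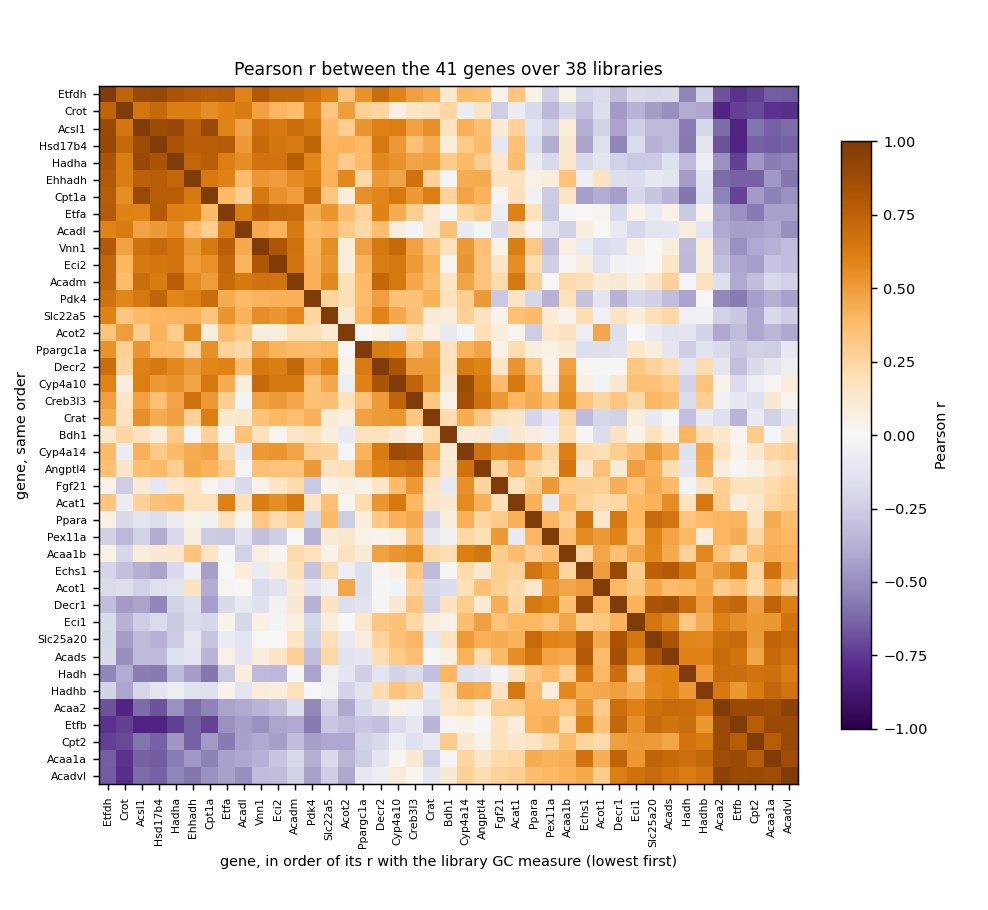
Pearson r between the 41 genes over 38 livers, with rows and columns ordered by each gene's r with the GC measure of the library. Negative values, down to −0.82 for Acsl1 and Etfb, lie between the ends of the order, and positive ones, up to 0.94 for Acadvl and Acaa2, near the diagonal.

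Hadha and Hadhb are transcribed in opposite directions, and their annotated gene limits lie close together, at 30155162 for Hadha and 30155248 for Hadhb. The stretch between these limits is shown, and whether it is a promoter that both share was not tested. It is 85 bases long, chr5:30155163-30155247 on the plus strand of GRCm38.p6. The starts in the RefSeq promoter table were not used for its limits. The RefSeq promoter windows are 30154931 to 30155230 for Hadha and 30155003 to 30155302 for Hadhb. The GC content of the stretch was 69.4%. The median over all RefSeq promoter windows was 52.4%, but those windows are longer, so the values are not directly comparable.
Hadha to Hadhb: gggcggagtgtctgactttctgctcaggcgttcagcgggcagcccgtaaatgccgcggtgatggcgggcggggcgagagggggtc
The genes' levels per 1000 bases were 1199 and 2081 at the median.

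The element PPARalpha binds with its partner RXR is a direct repeat of AGGTCA spaced by 1 base. AGGTCANAGGTCA was searched on both strands, with up to 2 mismatches, in the 250 bases before each start in the RefSeq promoter table of GRCm38.p6. Of the members, 32 matched a promoter entry, and 3 of these genes (9.38%) held a match before at least 1 of their listed starts, against 3.72% of 27025 genes in the table. All are shown. Creb3l3 was in a pair with Cyp4a14 among those chosen above, while Etfa and Echs1, a mitochondrial hydratase, were in no pair with an omega-hydroxylase given there. Capitals mark the match, and all are written along the gene's own strand, the minus strand of the genome: Creb3l3 at chr10:81092764-81092824, Echs1 at chr7:140116468-140116528 and Etfa at chr9:55512284-55512344.
Creb3l3: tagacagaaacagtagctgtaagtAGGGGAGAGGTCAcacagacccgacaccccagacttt
Echs1: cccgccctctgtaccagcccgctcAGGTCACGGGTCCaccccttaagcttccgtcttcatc
Etfa: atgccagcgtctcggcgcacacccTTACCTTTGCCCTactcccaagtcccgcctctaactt
The first base of the match lay 209, 83 and 77 bases before the listed start. For Creb3l3 this start lies inside the annotated gene (chromosome 10, 81084324 to 81098874), and the window at the gene's outer start had at best 4 mismatches. The match in Etfa reads on the opposite strand. A match of letters is a description and not a binding site. The 3 genes had log2 differences of 0.22, 0.04 and 0.04 between WDF_M and WD_M, none with an unadjusted p under 0.05. Acaa2, Cyp4a10, Crat, Vnn1, Hsd17b4, Angptl4, Decr1, Cyp4a14 and Acat1 had no entry.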

How the data were processed

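Polyadenylated RNA was sequenced as directional 43-nt paired ends, per the labels' protocols. The submitters' processing notes name Trimmomatic 0.39, STAR 2.7.3a, Salmon 1.3.0, DESeq2 1.24 and mm10, with no roles. The deposited values are a signal: counts divided by size factors, from which whole reads could not be recovered (26.9% to 56.4% of low values were whole steps within 0.1), so no count model was run. The authors' deposited comparison tables hold log2 fold changes and p-values.

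Values were tested with limma 3.58.1 in R 4.3.3 (trend and robust options) on log2(value + 1), a scale that understates changes of low genes. Genes at 10 or more in at least 5 of 38 libraries entered, 8 group means were fitted, and p-values were Benjamini-Hochberg adjusted over 15377 genes. The fit was tested on simulated data. A column without a sex letter was assigned to the remaining sample title. No 2 libraries correlated above 0.982. Any member may be named with levels; full statistics go to the members with the smallest p-values in a comparison, and genes of other lists are named as the 2 with the smallest p-values. Alternatives were other pseudocounts, filters, scalings and library sets, library weights, a replicate block, red cell markers or, chosen after seeing the data, the GC measure as covariate, and leaving out each library. Members and lists were chosen with earlier results of these data known.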

Additional observations from a re-analysis of the deposited data

Results flagged for a closer look

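In groups of 4 or 5 libraries, 27 of 328 sets of values of 1 gene in 1 group held a library far from the others, by a gap that took up more of the group's range than Dixon's critical value at 95% allows. Chance flags about 1 in 20 groups where values are normally distributed and independent. These values were not log-transformed, genes share libraries, and the share over all genes was not counted. The 27 of 328 can therefore not be read against that rate. Replicate 4 of CD_M held 6: Acadvl at 6565, Acaa2 at 20700, Etfb at 9396, Cpt2 at 1489 and Acaa1a at 1567 were high, and Etfa at 1574 was low. Replicate 4 of CDF_F held 4 high values, Slc25a20 at 1161, Echs1 at 4582, Decr1 at 3766 and Pex11a at 398. Replicate 4 of WD_M was high for Acadm (7086), Acaa1b (978) and Ehhadh (2380).

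In WDF_M replicate 1 was high for Ehhadh (1237), Acat1 (10010) and Acot2 (81.8). In CDF_M replicate 2 was high for Crat (859) and Decr2 (1266), and replicate 1 for Hadh (4823). In CD_F replicate 5 was high for Echs1 (3193) and Acot1 (488), and replicate 3 low for Ppargc1a (125). Echs1 was low in replicate 5 of CD_M (2374). Single high values were Vnn1 in replicate 1 (251) and Angptl4 in replicate 2 (857) of CDF_F, and Pex11a in replicate 2 of WD_F (231). Fgf21 was low in replicate 3 of CDF_F (3.4). All are normalized counts, and their causes were not tested.

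The 2 female libraries left out of the groups lay below all 38 others for 29 of 41 members each. Replicate 4 of CD_F was nevertheless above all 38 for 4 members: Slc22a5 (145), Acot1 (675), Acot2 (316) and Vnn1 (950). Replicate 5 of CDF_F was above all 38 for 5: Ppargc1a (298), Slc22a5 (158), Crat (1108), Acot2 (309) and Vnn1 (655). Shares of all genes below or above the 38 were not counted, so whether these counts are particular to the members is not known.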

How the results depend on the processing

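Of 510 recomputed summary values, 501 stayed on the same side of their threshold or within the spread of the members' score between livers, and 1495 of 1522 values of named genes kept direction and call. That spread was 0.136, above most medians of the main fit, so a median could change sign and still count as unmoved. Every count of passing members began at 0. The 501 is therefore no measure of robustness. With library weights the number of members at an adjusted p under 0.05 went from 0 to 9 for WDF_M against WD_M (4.04% of all genes), 2 for WDF_M against CDF_M (1.57%), 3 for the fat effect (3.16%), 2 for folic acid by fat in males (2.58%) and 7 for folic acid by sex (3.77%); the cause was not tested. With all 40 libraries the median log2 difference of the members was 0.34 for WD_F against CD_F, 0.28 for WDF_F against CDF_F and −0.0941 for females against males, and with a red cell covariate the first was 0.15. Leaving out each library in turn gave medians of 0.13 to 0.31 for WDF_M against WD_M, −0.14 to −0.03 for WD_M against CD_M, 0.05 to 0.18 for WDF_M against CDF_M, 0.03 to 0.13 for CDF_M against CD_M, −0.11 to 0.08 for WD_F against CD_F, −0.11 to 0.01 for WDF_F against CDF_F, −0.08 to 0.05 for WDF_F against WD_F and −0.01 to 0.12 for CDF_F against CD_F; no member passed in any.

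Signs turned for 17 values of named genes. With all 40 libraries these were Ehhadh in WD_F against CD_F (0.20), Acadm in CDF_F against CD_F (0.0078), Acadm (0.038) and Crat (0.0071) for folic acid, and Ppara (−0.28) and Acaa1b (−0.32) for sex. With 36 libraries Crat was at 0.0145 for folic acid. With library weights they were Etfa in WD_M against CD_M (−0.0224), Slc22a5 for folic acid (0.0229) and Cpt1a for sex (0.0443). With the GC covariate, chosen after seeing the data, they were Hadha in WDF_M against WD_M (0.0793), Acsl1 for folic acid by fat in females (−0.0098), and Crot (−0.0126), Hadha (−0.10) and Eci2 (−0.0383) for folic acid by sex. Leaving out each library in turn, Etfa in WD_M against CD_M ran from −0.0245, without replicate 4 of CD_M, to 0.294. Hadha in WDF_M against WD_M ran from −0.13 to 0.0103, the latter without replicate 4 of WD_M.

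Same-numbered livers of different groups did not deviate together on average (mean r −7.3e-05 over 126 pairs, and 0.0022 over 505 pairs with other numbers). Most of these pairs join different diets, so the mean cannot show whether the numbers pair males and females of the same diet. That was not tested. A fit with the replicate block gave a median of 0.22 for WDF_M against WD_M and 0 members passing in each of the 14 comparisons. Depth before normalization was not known, which limits what can be said of Fgf21 and other low genes.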
